A study of Mus musculus with 6 samples.

Results

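The proteasome genes were described in activated mouse B cells with and without hnRNPL, an RNA-binding protein of the splicing machinery. Members were chosen by gene name, as every gene called *Psma*, *Psmb*, *Psmc*, *Psmd*, *Psme*, *Psmf* or *Psmg* with a number and at most 1 further letter. The rule found 49 of 55421 genes and used no measured value. Of these, 47 had a mean of at least 10 normalized counts (read counts divided by a size factor of each library) and were tested. The other two, *Psma8* and *Psmb11*, fell below that minimum.

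RNA-seq was done on poly(A) RNA of splenic B cells from 3 WT and 3 hnRNPL-deficient mice, with 1 library per mouse. Mice of both groups carried the *CD21-cre* transgene and the *Rosa mT/mG* reporter. The hnRNPL-deficient mice were in addition homozygous for a floxed allele of the gene (*Hnrnpl F/F*), which the WT mice lacked. According to the methods, the mice were male and female C57BL6/J animals older than 6 weeks. The B cells were activated for 24 h with 5 µg/ml LPS and 5 ng/ml IL-4, and GFP+ cells, in which Cre had acted on the reporter, were sorted. This Cre is active mainly once B cells are mature, so the deletion is late in their development, and the GFP sort serves to leave out cells in which Cre had not acted. *Hnrnpl* itself, the targeted gene, stood at 24371, 25580 and 24174 normalized counts in WT libraries 1 to 3 and at 2178, 1519 and 1297 in hnRNPL-deficient libraries 1 to 3, or 6.74% of the WT mean.

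The proteasome is the protease complex that destroys proteins tagged with ubiquitin. Its 20S core is a barrel with the active sites on beta subunits inside and rings of alpha subunits at the ends, and it is capped by 19S particles that bind ubiquitin, remove it, unfold the substrate with a ring of ATPases and feed it into the core. In lymphocytes and in cells exposed to interferon, the immunoproteasome subunits *Psmb8*, *Psmb9* and *Psmb10* can take the place of the constitutive catalytic subunits, and the peptides that are cut supply MHC class I molecules.

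The sorted cells held the RNA of B cells. *Cd79a* and *Cd79b*, the signalling parts of the B cell receptor complex, were between 15004 and 25322 normalized counts in every library, whereas of 6 T cell markers only *Trac* reached the minimum for testing, at 13.9 to 32.9. *Ncr1* and *S100a8*, markers of NK and myeloid cells, were at 0 in all libraries. Of 6 myeloid markers, *Adgre1* rose, from 236 to 315 in WT to between 1217 and 1369 in hnRNPL-deficient libraries. *Itgam*, the other one tested, did not pass and had no more than 18.6. *Csf1r* had no more than 6.85, and *Cd14* and *Lyz2* no more than 2.02. Of 3 plasma cell genes, *Jchain* fell, from between 26.0 and 117 to between 7.07 and 23.4, and *Sdc1* and *Prdm1* did not pass the test. Of 3 NK cell genes *Prf1* rose, from at most 33.7 to at least 43.4, and of 4 erythroid genes *Hbb-bs*, the one tested, did not pass and had no more than 24.2. Among B cell genes *Blk* rose and *Cd22* and *Ms4a1* fell. The part of these genes in the proteasome values was not tested. In RNA from pooled cells, fewer cells of a type and less RNA per cell cannot be told apart. Reads on genes ranged from 40395186 (hnRNPL-deficient library 3) to 75180749 (WT library 3).

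The proteasome genes were among the more highly expressed genes of these cells. The median member had a WT mean of 5705 normalized counts, against 507 for all 17640 genes tested, which placed it at the 87.7th percentile. The members together took 0.580%, 0.563% and 0.551% of the normalized total of WT libraries 1 to 3 and 0.541%, 0.526% and 0.519% of hnRNPL-deficient libraries 1 to 3. Every hnRNPL-deficient library was thus below every WT library, by a small margin.

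No member passed both thresholds of a call (1.5-fold or more, and adjusted p under 0.1), although 11.4% of all genes tested did so in one direction or the other. Counts of 0 were also obtained with edgeR and with DESeq2 on 5 libraries. Without the fold threshold, limma on log2(normalized count + 1) with Benjamini-Hochberg adjustment put 6 members lower in hnRNPL-deficient cells, or 12.8% of those tested against a background of 7.97%. It put 1 member higher, or 2.13% against a background of 10.0%. At an unadjusted p under 0.05 there were 9 lower and 3 higher members, or 19.1% and 6.38%, against backgrounds of 12.9% and 14.4%.

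The direction was mostly downward and the size small. In hnRNPL-deficient cells 39 of 47 members (83.0%) had a lower mean on the log2 scale, whereas 52.7% of all genes tested did. The median log2 fold change of the members was -0.14, against -0.03 for all genes tested. The background here is all genes tested and was not matched to the members for level. In 16 members every hnRNPL-deficient library lay below every WT library (34.0%, background 16.3%), and in 3 members every one lay above (6.38%, background 17.7%). These figures depended on the scaling and on 1 library. With quantile normalization 31 of 47 members had a lower mean and the median was -0.06, nearer to that of all genes tested, -0.03. Equal library totals raised the median of all genes tested and that of the members alike, to 0.03 and -0.09. Without hnRNPL-deficient library 3 the median of the members was -0.09 and 33 had a lower mean. The differences were also bounded, since in 33 members the 95% interval lay wholly within 1.5-fold in either direction (70.2%, against 34.4% of all genes tested, which have lower counts).

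**Figure D1:**
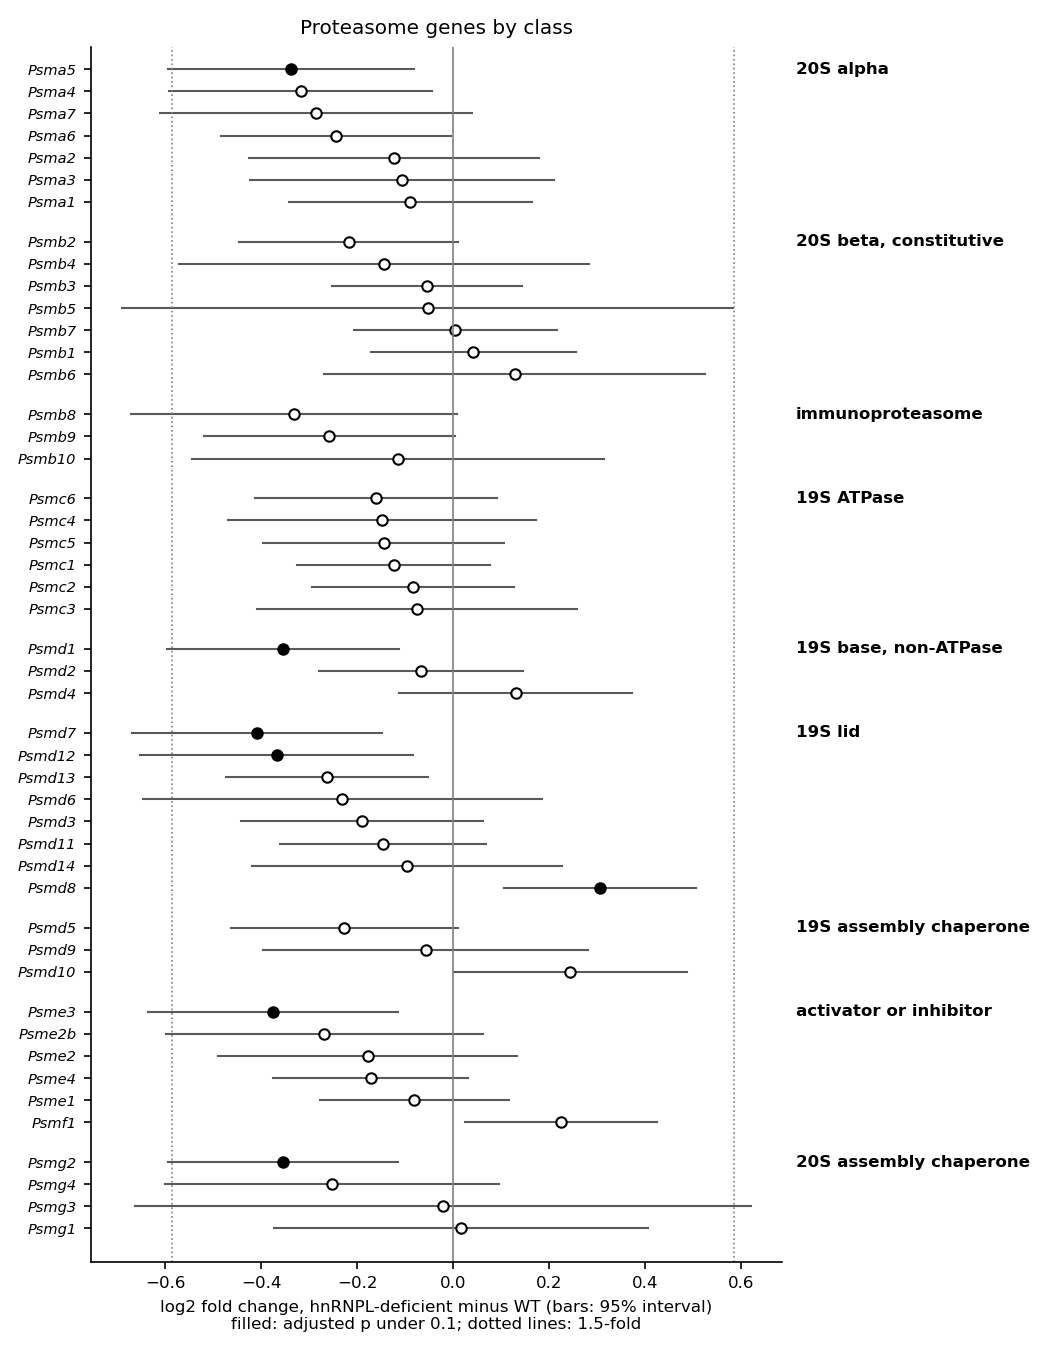
Log2 fold change of each of the 47 tested members, hnRNPL-deficient minus WT, with its 95% interval, by class. Filled points passed an adjusted p under 0.1 and dotted lines mark 1.5-fold. Most points lie left of 0, between -0.41 for *Psmd7* and 0.31 for *Psmd8*, and all lie between the dotted lines.

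The 7 members that passed an adjusted p under 0.1 belonged to different layers of the complex. *Psmd7* (Rpn8) is a lid subunit that pairs with the deubiquitinase Rpn11 and had the largest fall. Its normalized counts were 8893, 7960 and 7453 in WT libraries 1 to 3 and 6566, 6389 and 5385 in hnRNPL-deficient libraries 1 to 3. The groups did not overlap, and the mean in hnRNPL-deficient cells was 75.5% of that in WT cells. The log2 fold change was -0.41 ± 0.11 (SE, n = 3 per group; limma adjusted p = 0.0541).

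*Psmd12* (Rpn5), another lid subunit, measured 6081, 5745 and 4607 in WT mice 1 to 3 against 4434, 4342 and 3893 in hnRNPL-deficient mice 1 to 3. Each hnRNPL-deficient value was below that of WT mouse 3, the lowest of its group. Its log2 fold change was -0.37 ± 0.12 (SE; limma adjusted p = 0.0970). *Psmd1* (Rpn2), a scaffold of the 19S base, went from 14901, 12853 and 11890 to 10648, 10080 and 10162. The hnRNPL-deficient libraries were close to each other, and the log2 fold change was -0.35 ± 0.11 (SE; limma adjusted p = 0.0664).

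*Psme3* (PA28gamma), a nuclear activator that caps the core without ubiquitin recognition, had the highest normalized counts of all members. They were 38738, 30754 and 31022 in WT libraries and 25938, 25059 and 26070 in hnRNPL-deficient libraries, where they varied by 2.14% (coefficient of variation) against 13.5% in WT. WT library 1 stood well above the other two. The log2 fold change was -0.37 ± 0.11 (SE; limma adjusted p = 0.0705).

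*Psma5*, the alpha5 subunit of the outer ring, went from 4929, 4728 and 4108 in WT libraries to 3866, 3759 and 3270 in hnRNPL-deficient libraries. The log2 fold change was -0.34 ± 0.11 (SE; limma adjusted p = 0.0931), and the groups did not overlap. A share of 23.7% of the 100-base windows in its annotated transcripts also occurs in other genes, the pseudogenes *Gm8394* and *Gm12989* among them, so its level is uncertain. *Psmg2* (PAC2), a chaperone of alpha ring assembly, went from 2495, 2182 and 2130 to 1819, 1794 and 1702, a log2 fold change of -0.35 ± 0.11 (SE; limma adjusted p = 0.0650).

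*Psmd8* (Rpn12), the last subunit to join the lid, was the 1 member that was higher. It measured 11082, 10261 and 10141 in WT mice against 13313, 12993 and 12598 in hnRNPL-deficient mice. The lowest hnRNPL-deficient value was above the highest WT value, and the log2 fold change was 0.31 ± 0.09 (SE; limma adjusted p = 0.0579). The other lid subunits among the members all had lower means, except that *Psmd14* was slightly higher with quantile normalization, in both count tests and without WT library 1. A further lid subunit that the name rule leaves out, *Sem1*, was at 0.05 ± 0.10 (SE) and did not pass the test.

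*Psmd8* is also a close neighbour of the deleted gene. It lies at chr7:29174188-29180701 on the minus strand (GRCm38, GENCODE), 352 kb from *Hnrnpl* at chr7:28808541-28822266. *Psmc4*, a 19S ATPase 758 kb from *Hnrnpl*, did not pass the test (log2 fold change -0.15 ± 0.14, SE; limma adjusted p = 0.536). Of 61 genes tested within 1 Mb of *Hnrnpl*, 10 were higher and 4 lower at an adjusted p under 0.1, beside 1766 higher and 1406 lower of the 17640 genes tested. An effect of lost hnRNPL and one of the altered chromosome region cannot be told apart for *Psmd8*.

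**Figure D2:**
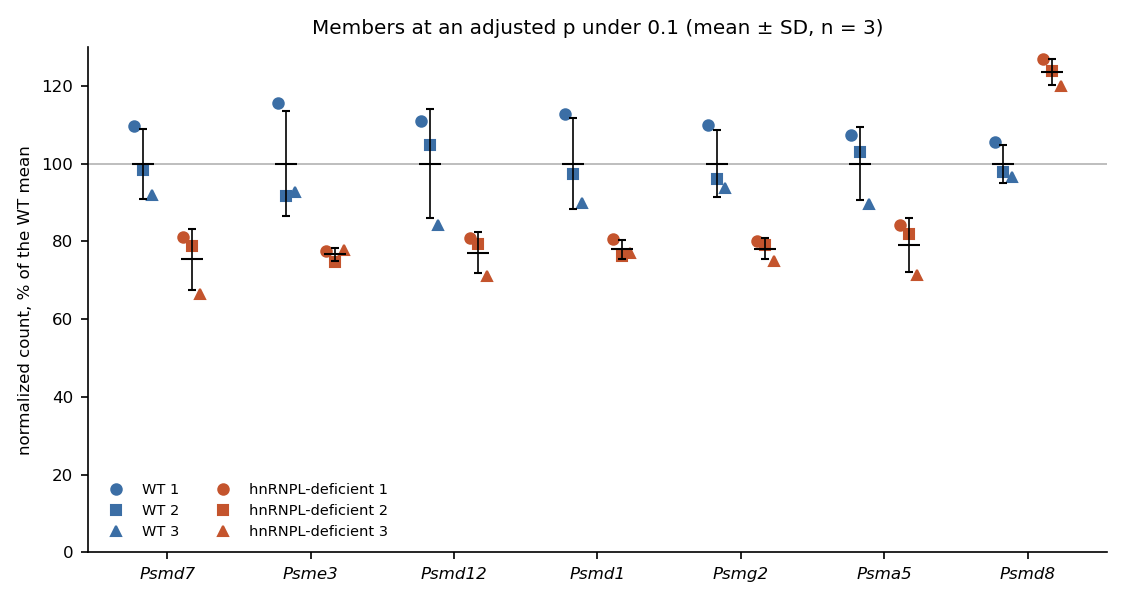
Normalized counts of the 7 members with an adjusted p under 0.1, as a percentage of the gene's WT mean, for each WT and hnRNPL-deficient library, with the mean and SD of 3 libraries per group. The groups do not overlap in any of the 7, and WT library 1 is the highest WT library in all of them.

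None of these calls held in all 6 fits that left out a library. WT library 1 held the highest WT value in 7 of 7 passing members and in 30 of 47 members tested. The same count over all genes was not made. When the library of WT mouse 1 or 2 or that of hnRNPL-deficient mouse 3 was left out, 0 members were lower at an adjusted p under 0.1. The share of all genes tested that were lower fell too, from 7.97% to 6.03%, 3.86% and 5.68% in these fits. The part of the smaller number of libraries was not tested. Leaving out WT library 3 kept 3 lower members, and leaving out hnRNPL-deficient library 1 or 2 kept only *Psmd7*. *Psmd8* passed when WT library 1 or hnRNPL-deficient library 3 was left out, and missed the threshold when any other library was. Of 17 alternative settings *Psmd7* passed in 13, *Psmd8* in 11 and *Psmd1* in 9, and *Psme3* and *Psmg2* passed in 7 each, *Psmd12* in 6 and *Psma5* in 5. None of the 7 changed direction in any of them.

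The 20S core was described ring by ring. All 7 alpha subunits had lower means, with a median log2 fold change of -0.24, but only *Psma5* passed the test. *Psma4* (alpha3) missed the threshold at -0.32 ± 0.12 (SE; limma adjusted p = 0.129) with no overlap between its groups, 10240, 8735 and 8271 in WT against 8214, 6774 and 6868. The smallest difference was that of *Psma1*, -0.09 ± 0.11 (SE). With quantile normalization *Psma1* and *Psma3* were slightly higher instead.

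Of the 7 constitutive beta subunits, 4 had lower and 3 higher means, the median was -0.05, and none passed the test. *Psmb2* (beta4) had the lowest log2 fold change, -0.22 ± 0.10 (SE; limma adjusted p = 0.201), and its groups did not overlap. *Psmb6* had the highest, 0.13 ± 0.17 (SE; limma adjusted p = 0.667). No test of alpha against beta subunits was run. Summed over all 14 constitutive core subunits, the hnRNPL-deficient mean was 91.9% of the WT mean, 98039 ± 6872 against 106656 ± 6437 normalized counts (SD, n = 3).

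The immunoproteasome subunits had lower means, and none of the 3 passed the test. *Psmb8* (beta5i, LMP7) measured 4806, 6178 and 5423 in WT libraries and 4418, 5096 and 3586 in hnRNPL-deficient libraries. The ranges overlapped, because WT library 1 lay below hnRNPL-deficient library 2. Its log2 fold change was -0.33 ± 0.15 (SE; limma adjusted p = 0.191). DESeq2 on 5 libraries, without hnRNPL-deficient library 2, gave an adjusted p of 0.0835.

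*Psmb9* (beta1i, LMP2) measured 2175, 2235 and 2367 in WT and 1865, 2129 and 1694 in hnRNPL-deficient libraries. All 3 of the latter were below all 3 of the former, at -0.26 ± 0.11 (SE; limma adjusted p = 0.187). *Psmb10* (beta2i, MECL-1) measured 1122, 1492 and 1377 against 1259, 1524 and 946. These values overlapped broadly, at -0.12 ± 0.19 (SE; limma adjusted p = 0.729), and without hnRNPL-deficient library 3 the log2 fold change of *Psmb10* was 0.068. The 95% interval of *Psmb8* ran from -0.67 to 0.01 and that of *Psmb10* from -0.54 to 0.31, so that of *Psmb8* reached past a 1.5-fold fall, whereas that of *Psmb9*, from -0.52 to 0.00, did not.

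The constitutive counterparts lay near their WT levels. *Psmb5* (beta5, chymotrypsin-like) measured 648, 1192 and 830 in WT and 825, 1162 and 599 in hnRNPL-deficient libraries, with coefficients of variation of 31.2% and 32.9%, the widest of the 47 members tested. Libraries numbered 2 were high in both groups, and the log2 fold change of -0.05 ± 0.28 (SE) says little. *Psmb6* (beta1, caspase-like) measured 4440, 6131 and 5323 against 5879, 7030 and 4585, again with libraries numbered 2 on top. *Psmb7* (beta2, trypsin-like) varied by 5.63% in WT and 5.70% in hnRNPL-deficient libraries, and its log2 fold change was 0.01 ± 0.09 (SE).

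Whether the balance of immuno and constitutive catalytic subunits differed was examined as a ratio within each library. The *Psmb8* to *Psmb5* ratio of normalized counts was 7.42, 5.18 and 6.54 in WT and 5.36, 4.38 and 5.99 in hnRNPL-deficient libraries, a difference of -0.28 on the log2 scale (two-sided exact permutation test, p = 0.3). The *Psmb9* to *Psmb6* ratio was 0.490, 0.365 and 0.445 against 0.317, 0.303 and 0.370, a log2 difference of -0.39 (exact permutation p = 0.2). Only hnRNPL-deficient library 3 reached into the WT range. For *Psmb10* to *Psmb7* the log2 difference was -0.12 (exact permutation p = 0.8), or 0.034 without hnRNPL-deficient library 3. Adjusted over the 3 ratios, the exact p-values were 0.45, 0.45 and 0.8, and with 3 libraries against 3 the smallest p that this test can give is 0.1.

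**Figure D3:**
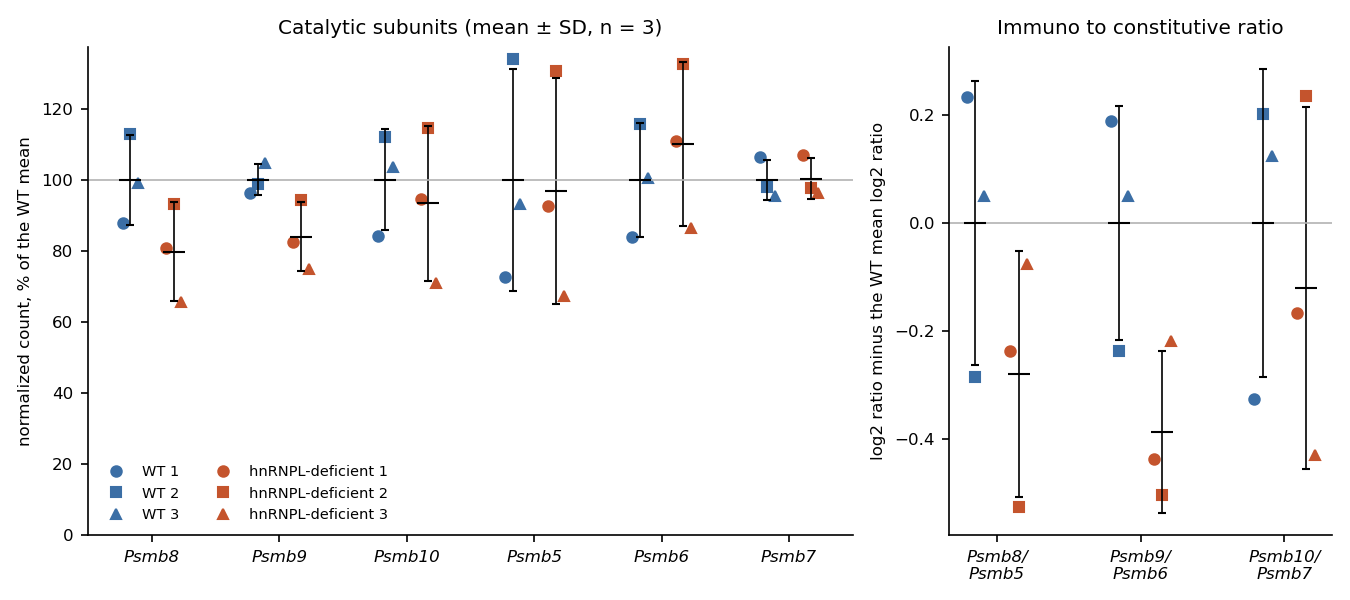
Left, normalized counts of the 3 immunoproteasome subunits and their constitutive counterparts per library, as a percentage of the WT mean. Right, the log2 ratio of each immunoproteasome subunit to its counterpart, minus the WT mean. Black marks are the mean and SD of 3 libraries per group, and the groups overlap in all 3 ratios.

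The immunoproteasome serves MHC class I, so the genes of peptide supply were measured beside it. *H2-K1*, a class I heavy chain, fell from between 19422 and 22300 to between 10790 and 12391 normalized counts (log2 fold change -0.82 ± 0.10, SE; limma adjusted p = 0.00243). The other heavy chain of the list, *H2-D1*, did not pass, at -0.71 ± 0.27 (SE; limma adjusted p = 0.133), and its groups overlapped. *B2m*, the light chain of all class I molecules, fell by 0.77 on the log2 scale (SE 0.14, limma adjusted p = 0.0129), and *Tapbp*, the tapasin that loads peptides, by 0.45 (SE 0.12, adjusted p = 0.0409). *Tapbp* missed the threshold with quantile normalization, without a variance trend and when WT library 2 or 3 or hnRNPL-deficient library 1 was left out (limma adjusted p = 0.101 to 0.151). Of the 10 genes of this list 3 passed lower and none higher, beside backgrounds of 7.97% and 10.0%, and their median log2 fold change was -0.39, against -0.03 for all genes tested. The peptide transporter genes *Tap1* and *Tap2* did not pass, at -0.18 ± 0.12 and -0.39 ± 0.17 (SE), nor did the regulators *Nlrc5* and *Irf1*, at -0.38 and 0.06.

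The 19S particle had the most uniform class. All 6 ATPases, *Psmc1* to *Psmc6*, had lower means, between -0.16 for *Psmc6* and -0.07 for *Psmc3*. None passed the test, and the 95% interval of each lay within 1.5-fold. Only *Psmc1* had no overlap between the groups. With quantile normalization *Psmc2* and *Psmc3* were slightly higher instead.

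Of the 3 non-ATPase subunits of the base, *Psmd1* passed lower, *Psmd2* (Rpn1) was at -0.07 ± 0.09 (SE), and *Psmd4* (Rpn10), a ubiquitin receptor, was at 0.13 ± 0.11 (SE; limma adjusted p = 0.465). *Psmd4* measured 3454, 3892 and 3717 in WT against 4133, 4371 and 3628 in hnRNPL-deficient libraries, and the groups overlapped. Of the 8 lid subunits among the members, 7 had lower means, 2 passed lower and 1, *Psmd8*, higher. *Psmd13* (Rpn9) came close, at -0.26 ± 0.09 (SE; limma adjusted p = 0.107) with values of 4929, 4705 and 4512 in WT against 4137, 3930 and 3727. *Psmd14* (Rpn11), the deubiquitinase of the lid, was at -0.10 ± 0.14 (SE). Summed over 17 subunits, the 19S genes stood at 91.4% of the WT mean.

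Among activators and inhibitors, *Psme3* was the one that passed. *Psme1* and *Psme2*, whose products form the interferon-inducible PA28 cap, were at -0.08 ± 0.09 and -0.18 ± 0.14 (SE). *Psme2b*, a close copy of *Psme2*, was at -0.27 ± 0.14 (SE; limma adjusted p = 0.273), but 52.0% of its 100-base windows are shared with *Psme2*, so its counts are uncertain. Of the windows of *Psme2* 18.4% are shared with *Psme2b*, so its counts are uncertain to that extent too. *Psme4* (PA200), a nuclear activator, had no overlap between groups and a log2 fold change of -0.17 ± 0.09 (SE; limma adjusted p = 0.254).

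*Psmf1* (PI31), an inhibitor of the core in vitro, went the other way. It measured 2669, 2666 and 2652 in WT mice against 3098, 3177 and 3065 in hnRNPL-deficient mice. Its WT values varied by only 0.345%, all hnRNPL-deficient values lay above them, and the log2 fold change was 0.23 ± 0.09 (SE; limma adjusted p = 0.138). *Psmf1* passed with equal library totals and with quantile normalization, at limma adjusted p-values of 0.0643 and 0.0595.

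The assembly chaperones were mixed. *Psmd10* (gankyrin), a chaperone of the 19S base on chromosome X, measured 1465, 1306 and 1288 in WT and 1672, 1547 and 1583 in hnRNPL-deficient libraries. The groups did not overlap, at 0.24 ± 0.11 (SE; limma adjusted p = 0.180). *Psmd5*, another base chaperone, was at -0.23 ± 0.10 (SE; limma adjusted p = 0.200), again with no overlap, and *Psmd9* at -0.06 ± 0.15. Of the 4 chaperones of the core, *Psmg2* passed lower, *Psmg4* was at -0.25 ± 0.15, *Psmg3* at -0.02 ± 0.28 and *Psmg1* at 0.02 ± 0.17 (SE).

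Levels between subunits were compared per kb of the longest coding transcript. In WT cells *Psmb2* had the highest mean, 14780 ± 1215 normalized counts per kb (SD, n = 3), followed by *Psme3* (12577 ± 1702), *Psme1* (11602 ± 494) and *Psma1* (11029 ± 1082). The SDs of neighbours in this order overlapped. Within each WT library, *Psmb2* was above *Psme3* and *Psme3* above *Psme1*, whereas *Psma1* (12220) was above *Psme1* (12160) in WT library 1. The order was not tested. At the other end were the chaperones *Psmg3* (184 ± 45.3 per kb) and *Psmd9* (402 ± 50.5) and, next above them, *Psmf1* (699 ± 2.41). Of the 100-base windows of *Psmd9* 23.9% are shared with *Gm26745*, so its level is uncertain to that extent. The 14 constitutive core subunits are present in equal number only in a core without immunoproteasome subunits. They ranged in RNA level from 990 ± 308 per kb for *Psmb5*, which *Psmb8* can replace, to that of *Psmb2*. With all annotated exons of a gene as the length, *Psme3* was first and *Psmb2* second.

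The catalytic pairs differed in order. *Psmb8* was at 3359 ± 422 normalized counts per kb in WT cells, above *Psmb5*, whereas *Psmb9* (1671 ± 72.7) and *Psmb10* (1015 ± 144) were below *Psmb6* (6639 ± 1060) and *Psmb7* (7486 ± 421). Of the windows of *Psmb5* 22.2% are shared with other genes, the pseudogene *Gm3375* among them, and how reads that fit several places were counted is not given in the sources used here. Its level, and the order within its pair, are uncertain to that extent. The tissue-restricted subunits were close to absent: *Psma8*, the alpha subunit of the testis, had 7, 1 and 8 reads in WT and 7, 4 and 1 in hnRNPL-deficient libraries, and *Psmb11*, the beta subunit of thymic cortical epithelium, had 0, 0 and 2 against 3, 4 and 7.

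**Figure D4:**
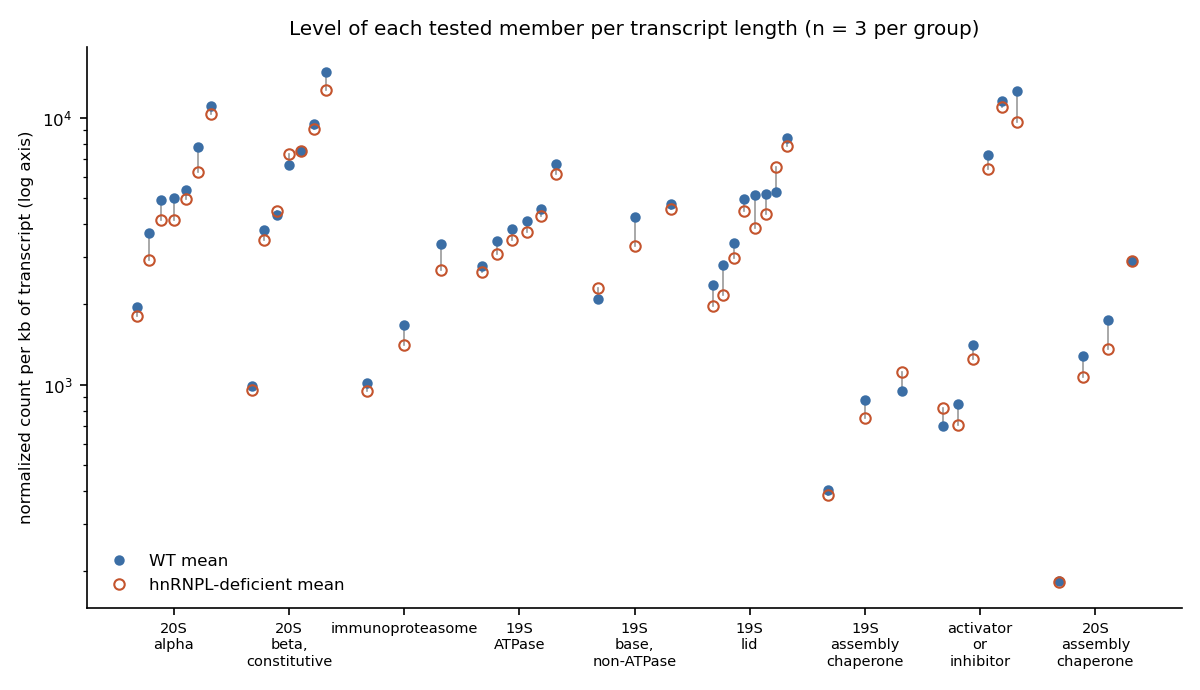
Mean normalized count per kb of the longest coding transcript for the 47 tested members by class, on a log axis, in WT (filled) and hnRNPL-deficient (open) cells, with n = 3 per group and lines joining the means of a gene. Levels of the tested members, assembly chaperones included, span from 184 (*Psmg3*) to 14780 (*Psmb2*) per kb in WT cells. This is far more than the distance between the groups for any member.

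Several members varied more between libraries of 1 group than between the groups. *Psmb5*, *Psmb6*, *Psmb4*, *Psmb10* and *Psmc3* were highest in WT library 2 and in hnRNPL-deficient library 2, and lowest in WT library 1 and hnRNPL-deficient library 3. These transcripts are rich in G and C, at 52.2% (*Psmb4*) to 56.6% (*Psmb5*). *Psma3*, *Psmd6* and *Psmd14*, at 40.8% to 47.1%, were highest in WT library 1. Other members went against this split. *Psma2*, at 39.4%, had the library order of the GC-rich genes named, and *Psmb3*, *Psme1* and *Psmg4*, at 53.8% to 55.1%, were highest in WT library 1.

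Over the 47 members, the log2 difference between WT libraries 2 and 1 had a Pearson correlation of 0.53 with transcript GC content, and that between hnRNPL-deficient libraries 3 and 2 one of -0.52. Over 17589 genes tested with a transcript the same correlations were 0.15 and -0.34. The difference between the group means had a correlation of 0.08 with GC content over the members and of -0.14 over those genes. These are descriptions across genes of the same libraries, which share depth and preparation, and the part of GC content in the results was not tested. Libraries also differed as a whole, since the median log2 distance of the members from their WT mean was -0.06 and -0.09 in hnRNPL-deficient libraries 1 and 2 and -0.30 in library 3, the one with the fewest reads.

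**Figure D5:**
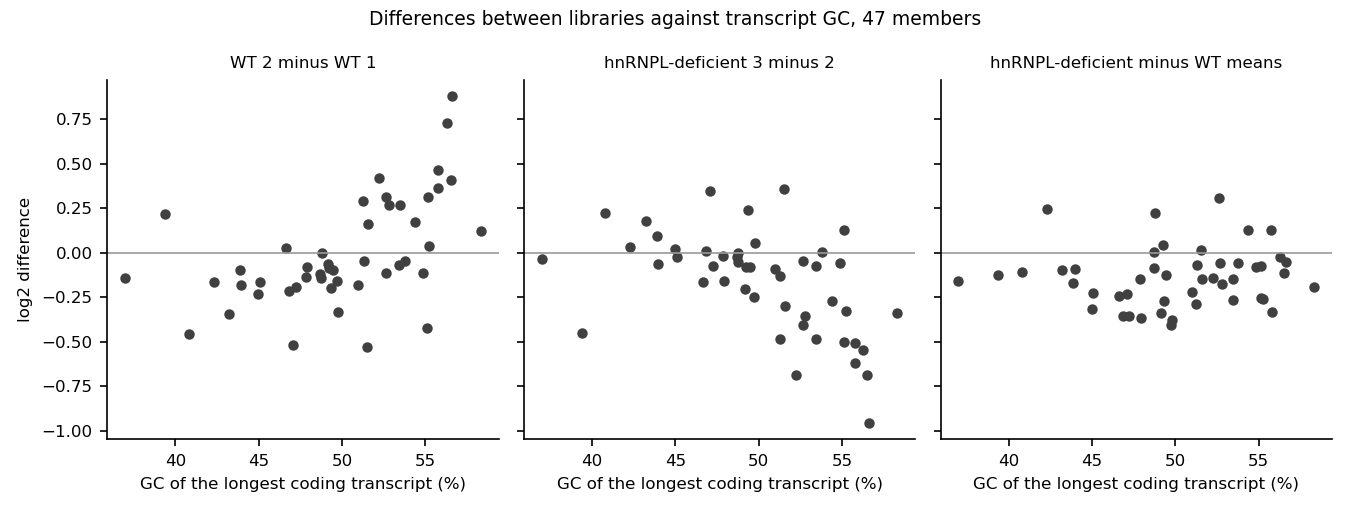
Log2 difference in log2(normalized count + 1) of the 47 tested members against the GC content of the longest coding transcript, for WT library 2 minus 1 (left), hnRNPL-deficient library 3 minus 2 (middle) and the group means (right). The left panel slopes upward and the middle one downward, with correlations of 0.53 and -0.52, while the right panel has a correlation of 0.08.

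Other genes of the pathway were taken from a list of 33 partners, which holds regulators, shuttles, deubiquitinases, ubiquitin genes and assembly factors. Of 32 tested, 2 were higher and 1 lower at an adjusted p under 0.1, or 6.25% and 3.13%, both below the backgrounds of 10.0% and 7.97%. Their median log2 fold change was -0.06, against -0.03 for all genes tested. *Ngly1*, the peptide N-glycanase that processes the transcription factor encoded by *Nfe2l1*, rose and was the 1 partner past both thresholds. It measured 1271, 1232 and 1174 in WT and 2010, 1641 and 2019 in hnRNPL-deficient libraries, with no overlap, and its log2 fold change was 0.62 ± 0.12 (SE; limma adjusted p = 0.0145). It passed an adjusted p under 0.1 in all 17 alternative settings.

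*Ubb*, 1 of the genes encoding ubiquitin itself, rose from 69656, 67317 and 66889 to 86839, 90365 and 80327, a log2 fold change of 0.34 ± 0.10 (SE; limma adjusted p = 0.0711). *Uchl5*, a deubiquitinase of the 19S particle, fell from 5514, 3997 and 3925 to 3624, 3027 and 2913, a log2 fold change of -0.48 ± 0.15 (SE; limma adjusted p = 0.0818). WT library 1 was again far above the other two. Of 6 fits with a library left out, *Uchl5* passed in 1, that without hnRNPL-deficient library 1, and *Ubb* in 2.

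*Nfe2l1*, which encodes the factor that raises proteasome gene transcription when proteasome activity is short, measured 4480, 6838 and 5673 in WT and 5416, 6692 and 5151 in hnRNPL-deficient libraries. These values overlapped throughout, at 0.03 ± 0.17 (SE; limma adjusted p = 0.915). *Pomp*, the maturation factor of the core, was at -0.17 ± 0.10, the ubiquitin receptor gene *Adrm1* (Rpn13) at -0.21 ± 0.20 and *Sem1*, a small lid subunit, at 0.05 ± 0.10 (SE), and none of these passed the test.

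The promoters of the members with the largest changes are shown because the genes moved in the same direction, and the search letters below are those of factors known for proteasome or immune genes. RefSeq promoter windows (GRCm38.p6, 250 bases before to 50 after the start) matched 41 of 49 members by symbol. *Psme3*, *Psmd12* and *Psmd1* had the largest log2 fold changes among members with a window to print. Each is given 5′ to 3′ on the plus strand, the strand of the gene, with matches to any motif in capitals.
Psme3, chr11:101315963-101316262: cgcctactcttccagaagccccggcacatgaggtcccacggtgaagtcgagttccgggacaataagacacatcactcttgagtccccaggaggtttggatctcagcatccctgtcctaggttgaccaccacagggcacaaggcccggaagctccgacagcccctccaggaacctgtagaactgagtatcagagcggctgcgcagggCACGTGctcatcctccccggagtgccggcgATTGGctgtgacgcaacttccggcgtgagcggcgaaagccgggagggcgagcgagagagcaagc
Psmd12, chr11:107479278-107479577: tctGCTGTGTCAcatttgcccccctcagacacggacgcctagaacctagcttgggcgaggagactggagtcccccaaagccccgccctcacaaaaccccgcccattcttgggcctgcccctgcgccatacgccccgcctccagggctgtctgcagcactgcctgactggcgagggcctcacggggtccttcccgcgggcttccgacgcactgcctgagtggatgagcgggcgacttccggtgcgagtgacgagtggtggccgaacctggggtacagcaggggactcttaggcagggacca
Psmd1, chr1:86064369-86064668: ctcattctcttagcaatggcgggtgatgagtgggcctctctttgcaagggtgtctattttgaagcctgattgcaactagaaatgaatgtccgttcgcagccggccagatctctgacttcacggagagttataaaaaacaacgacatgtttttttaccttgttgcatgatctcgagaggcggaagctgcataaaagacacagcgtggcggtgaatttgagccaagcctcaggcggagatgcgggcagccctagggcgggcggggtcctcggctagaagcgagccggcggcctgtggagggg

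Each motif was searched on both strands in every window. The 41 members have 44 windows, and a member counts if any of its windows matches, whereas the background counts single windows. The core of the antioxidant response element, TGACNNNGC, lay in the windows of 6 of 41 members (14.6%), *Psmd12* among them, against 12.4% of all 32851 windows in the table. The E-box CACGTG was found in 4 members (9.76%, all windows 7.15%), *Psme3* among them, and the CCAAT box in 14 members (34.1%, all windows 37.4%). The STAT site TTCNNNGAA was found in 3 members (7.32%, all windows 8.30%), of which *Psmb8* was one, and the interferon response core GAAANNGAA in 7 members (17.1%, all windows 8.56%), none of them an immunoproteasome subunit. *Psmd1* had no match to any of the 5. A match is only a run of letters and does not show that a factor binds there.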

How the data were processed

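The 6 RNA-seq libraries, 3 per genotype, were grouped by the submitters' labels. Per the labels and methods, the authors trimmed reads with fastp 0.23.1, aligned them to mm10 with STAR 2.7.9a, counted them per gene and strand with featureCounts and divided them by DESeq2 1.38.2 size factors. The deposited values are these normalized counts, a signal with 1 column per mouse. Columns of the authors' own test results (fold changes, p-values) were not used. Where reads are counted by strand, a gene and its antisense partner are kept apart.

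The main test was limma 3.58.1 (R 4.3.3) on log2(normalized count + 1), with the variance trended on the mean. It covered the 17640 genes that averaged 10 or more, with Benjamini-Hochberg adjustment over all of them. A call is an adjusted p under 0.1 with a 1.5-fold change. All values came out as whole reads (100% per library, within 0.01 of a whole number). Count tests (the quasi-likelihood test of edgeR 4.0.16, and DESeq2 1.42.0) used the reads of 5 libraries, a choice made after seeing the data, since the step of hnRNPL-deficient library 2 is close to 1 and was not read by the automatic test. They called 1, *Psmd7*, and 2 members lower, *Psmd7* and *Psmb8*, and *Psmd8* higher, at an adjusted p under 0.1. Ratios were tested by exact permutation. Positions, lengths and shared 100-base windows come from GENCODE M21 on GRCm38, an earlier release than the authors'. The limma script was checked on simulated counts.

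Members are named in full if they are catalytic subunits or their counterparts, passed the test or had 1 of the 5 largest changes in a direction, and otherwise as the extremes of their class. The members and lists were chosen with earlier results of these data known. Replicate numbers were not used to pair the libraries, because the labels do not say what they stand for. Alternatives were other pseudocounts, filters, scalings, variance settings and thresholds, the replicate block and each library left out.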

Additional observations from a re-analysis of the deposited data

How the results depend on the processing

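The median log2 fold change of the members kept its sign under every alternative run, and was -0.19 to -0.092 with a library left out, nearest 0 without hnRNPL-deficient library 3. The counts at an adjusted p under 0.1 did not stay within 1.5 times of 6 lower and 1 higher. Without a filter on low values 3 members were lower, and 1 member, *Psmb11* with at most 7 reads in a library, passed both thresholds of a call. It did so too at a minimum mean of 1, where 2 members were higher. Quantile normalization gave 3 lower and 2 higher members, equal totals gave 3 higher, and a fit without a variance trend gave 0 and 0. A threshold of 0.05 also left 0 and 0. On the reads of 5 libraries, an alternative added after the data were seen, edgeR gave 1 lower member and DESeq2 gave 2. Leaving out each library in turn gave 0 to 3 lower and 0 to 1 higher members. In those fits 3.83% to 6.03% of all genes tested were lower and 5.33% to 8.54% higher, against 7.97% and 10.0% with all libraries.

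Of the partner genes, 1 was lower and 2 higher. The lower count was 0 without a variance trend, in edgeR and in DESeq2, and 0 to 1 with a library left out. The higher count was 1 without a filter, without a variance trend and in edgeR, and 1 to 2 with a library left out.

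With the replicate block there were 13 lower and 3 higher members and 6 lower partner genes, while 16.5% of all genes tested were lower and 16.4% higher, against 7.97% and 10.0% without the block. The labels name no shared source for the numbers. Same-numbered libraries had correlations of 0.43, 0.32 and 0.07 of their deviations, the third WT library being closer to hnRNPL-deficient library 2 (0.31). Whether same-numbered libraries share a batch is thus not known, and the pairing was not used in the main test.

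Values near 0 changed sign in some settings. With equal totals, which moved the median of all genes from -0.027 to 0.028, *Psmb5* was at 0.0025 and *Psmg3* at 0.034. With quantile normalization *Psma1* was at 0.038, *Psma3* at 0.051, *Psmc2* at 0.045, *Psmc3* at 0.019, *Psmd2* at 0.084, *Psmd14* at 0.037 and *Psme1* at 0.049. *Psmd14* was at 0.026 in edgeR and 0.0036 in DESeq2, *Nfe2l1* at -0.065 and -0.085, and *Psmb6* at -0.0039 in DESeq2. With a library left out, *Nfe2l1* ranged from -0.12 to 0.18, *Psma3* from -0.19 to 0.042, *Psmb5* from -0.29 to 0.18, *Psmb6* from -0.017 to 0.29, *Psmb7* from -0.041 to 0.050, *Psmb10* from -0.28 to 0.068, *Psmc3* from -0.18 to 0.068, *Psmd9* from -0.17 to 0.045, *Psmd14* from -0.19 to 0.031, *Psmg1* from -0.076 to 0.19 and *Psmg3* from -0.22 to 0.21. The *Psmb10* to *Psmb7* ratio ranged from -0.30 to 0.034 on the log2 scale. The cause of these changes was not tested. With 3 libraries per group, differences well under 1.5-fold are at the limit of what these data resolve.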
